A study of Mus musculus with 20 samples.

Results

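Livers of Fancd2 mutant mice given oxymetholone alone were compared with livers of Fancd2 mutant mice given metformin alone, across all genes. The groups were taken from the labels (genotype d2-/-, treatment oxm or met) and hold 5 and 3 libraries, 8 of the 18 libraries with counts. All mice were male, and liver was collected after 18 months of treatment. The other 10 libraries came from untreated d2-/- mice (3), d2-/- mice given both drugs (3) and untreated wild-type mice (4), and they entered the fit that estimates the spread. Every library of the compared groups therefore shares the loss of Fancd2, and neither group shows the effect of a drug in wild-type liver. Strain, exact age, dose, route and the allele of Fancd2 are not stated in the labels, and nothing in the labels says that each library is a separate animal, so p-values measure the spread between these libraries. Fancd2 itself, 1 more metformin sample and 1 more untreated mutant sample were not analysed here.

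Fancd2 belongs to the Fanconi anaemia pathway, a set of proteins that remove crosslinks between DNA strands, and loss of the pathway in people leads to bone marrow failure. Oxymetholone is a synthetic androgen given for such marrow failure, and androgens act through a nuclear receptor that binds DNA and turns genes on or off. The liver is a main site of androgen metabolism, and many liver genes differ between the sexes. Metformin is a diabetes drug that enters liver cells through cation transporters, acts on the mitochondrial respiratory chain and on AMP-activated kinase, and lowers the making of glucose.

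The 8 libraries held between 21.2 and 32.7 M counts. Hepatocyte marker genes were abundant in all of them: 15 of 15 were detected in every library, with a summed level of 69728 to 111880 CPM (counts relative to 1 M counts of a library) with metformin and 84556 to 143930 with oxymetholone. The markers were higher with oxymetholone in 14 of 15 (median log2 difference 0.42, and 0.40 without metformin replicate 3, which is described next), none at an adjusted p under 0.05 (edgeR). Metformin replicate 3 stood apart among the 8 compared libraries. Its median correlation of log2 CPM with the other libraries was 0.926, against 0.942 to 0.963 in the 5 oxymetholone libraries. Combination replicate 3, outside the comparison, was lower still at 0.916. Metformin replicate 3 had the highest level of all 18 libraries in 2020 genes (12.5% of those tested). That share was passed by oxymetholone replicate 3 (15.3%) and combination replicate 3 (13.8%) and by no other library. Oxymetholone replicate 3 had 8.19% of its counts from mitochondrial genes, against 1.77 to 2.55% in the other 4 and 3.25 to 3.89% with metformin. Results that rest on metformin replicate 3 are given with and without it.

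Few genes passed the test of oxymetholone against metformin. In simulated counts the same fit found 6% of genes changed 2-fold, so genes that did not pass may still differ. Of 16115 genes tested with edgeR's quasi-likelihood test, 9 had a Benjamini-Hochberg adjusted p under 0.05, which is 0.0558% of the genes. A gene is called here where it passed this edgeR test, and calls by DESeq2 are named as such. Higher with oxymetholone were Paqr8, Wif1, Rab38, the long noncoding RNA Lncbate1 and the predicted genes Gm10440 and Gm10032 (0.0372% of genes), and lower were Tmem62, Ubr1 and Adgrg7 (0.0186%). At an unadjusted p under 0.05 there were 880 genes, or 5.46% of those tested. In 259 genes (1.61%) all 5 oxymetholone libraries lay on one side of all 3 metformin libraries, above them in 122 (0.757%) and below them in 137 (0.85%). The median log2 difference over all genes, oxymetholone minus metformin, was -0.017.

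**Figure D1:**
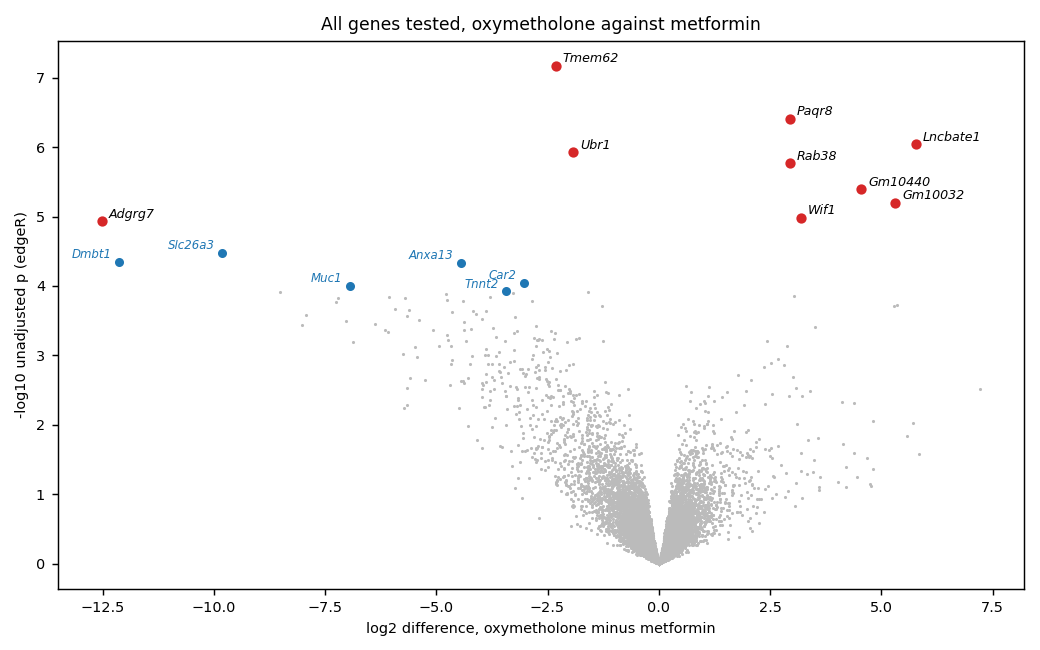
Each point is 1 of 16115 genes, with the log2 difference between oxymetholone and metformin (positive where higher with oxymetholone) on the x axis and the unadjusted p from edgeR as -log10 on the y axis. The 9 called genes are red and the next 6 by p, none of them called by edgeR, are blue and all lie on the metformin side.

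Paqr8 encodes a membrane receptor for progestins, steroid hormones, that lies outside the nuclear receptor family. Its level was 17.7, 26.9, 13.4, 28.9 and 27.0 CPM in oxymetholone replicates 1 to 5 and 1.63, 4.92 and 2.29 CPM in metformin replicates 1, 3 and 4. The lowest oxymetholone library was above the highest metformin library. The log2 difference was 2.94 ± 0.37 (SE), a 7.68-fold higher level (adjusted p = 0.00315, edgeR). Without metformin replicate 3, the metformin library with the highest level, the difference was 3.53 ± 0.37 (adjusted p = 0.000443).

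Wif1 encodes a secreted protein that binds Wnt ligands and blocks their signal. Oxymetholone replicates 1 to 5 had 41.7, 44.0, 18.1, 16.3 and 37.6 CPM, and metformin replicates 1, 3 and 4 had 3.32, 2.38 and 4.66 CPM. The groups did not overlap, and oxymetholone replicates 3 and 4 had the lower levels of that group. The log2 difference was 3.19 ± 0.51, or 9.11-fold (adjusted p = 0.0209, edgeR), and 2.98 ± 0.60 without metformin replicate 3, which was no longer called (adjusted p = 0.208). With metformin, Wif1 was also above the untreated mutants, which had 0.213, 1.04 and 0.880 CPM, but the difference of 2.31 ± 0.56 between metformin and untreated mutants was not called (adjusted p = 0.579, edgeR).

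Rab38 encodes a small GTPase that directs membrane traffic to lysosome-related organelles such as melanosomes. Its level was 16.8, 17.4, 12.1, 13.2 and 13.8 CPM with oxymetholone and 2.37, 2.64 and 0.724 CPM with metformin. The oxymetholone libraries lay close together and all above metformin, with a log2 difference of 2.94 ± 0.41, or 7.70-fold (adjusted p = 0.00551, edgeR). Lncbate1 is a long noncoding RNA first described in brown fat. It had 23.0, 25.7, 8.14, 11.6 and 11.5 CPM with oxymetholone and 0.368, 0.0991 and 0.406 CPM with metformin. This was the largest rise among the called genes in the fit, 5.77 ± 0.77 on the log2 scale (adjusted p = 0.00479, edgeR).

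The predicted genes had low levels. Gm10440 had 2.28, 2.56, 2.0, 1.46 and 1.19 CPM with oxymetholone and 3, 2 and 1 counts in the metformin libraries, a fitted log2 difference of 4.55 ± 0.68 (adjusted p = 0.0108, edgeR). Gm10032 had 2.72, 3.26, 2.33, 9.09 and 3.60 CPM with oxymetholone and 4, 1 and 3 counts with metformin, a fitted difference of 5.32 ± 0.82 (adjusted p = 0.0144, edgeR). Neither gene's groups overlapped, and with so few counts in the metformin libraries the size of both differences is poorly known. Neither was called without metformin replicate 3 (adjusted p = 0.124 for Gm10440 and 0.163 for Gm10032).

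Tmem62 and Ubr1 lie next to each other on chromosome 2 and were both lower with oxymetholone. Tmem62 encodes a membrane protein whose function is little known. It had 3.72, 2.93, 4.52, 4.38 and 2.14 CPM with oxymetholone and 15.4, 12.6 and 24.7 CPM with metformin. Every oxymetholone library was below every metformin library. The log2 difference was -2.32 ± 0.25, a 4.98-fold lower level, and it had the smallest p of all genes (adjusted p = 0.00108, edgeR). Ubr1 encodes a ubiquitin ligase that marks proteins for breakdown according to their first amino acid. It had 5.45, 5.23, 4.57, 3.25 and 2.60 CPM with oxymetholone and 18.1, 15.9 and 14.1 CPM with metformin. Again the groups did not overlap, and the log2 difference was -1.93 ± 0.26, or 3.80-fold lower (adjusted p = 0.00479, edgeR). Of the genes around the pair, Ccndbp1 differed by 0.06 ± 0.15, Ttbk2 by -0.20 ± 0.27 and Lcmt2 by -0.33 ± 0.21, and none of them was called.

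Adgrg7 encodes an adhesion receptor found mainly in the intestine, and its call rested on 1 library. It had 6472 counts (213.7 CPM) in metformin replicate 3, 10 counts (0.526 CPM) in replicate 1 and 7 counts (0.203 CPM) in replicate 4. The 5 oxymetholone libraries held 1 count in all, in replicate 1. Every metformin library was above every oxymetholone library, but the fitted difference depends on how a count of 0 is treated and is not given as a fold. The adjusted p was 0.0210 (edgeR) with all libraries and 0.688 without metformin replicate 3.

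**Figure D2:**
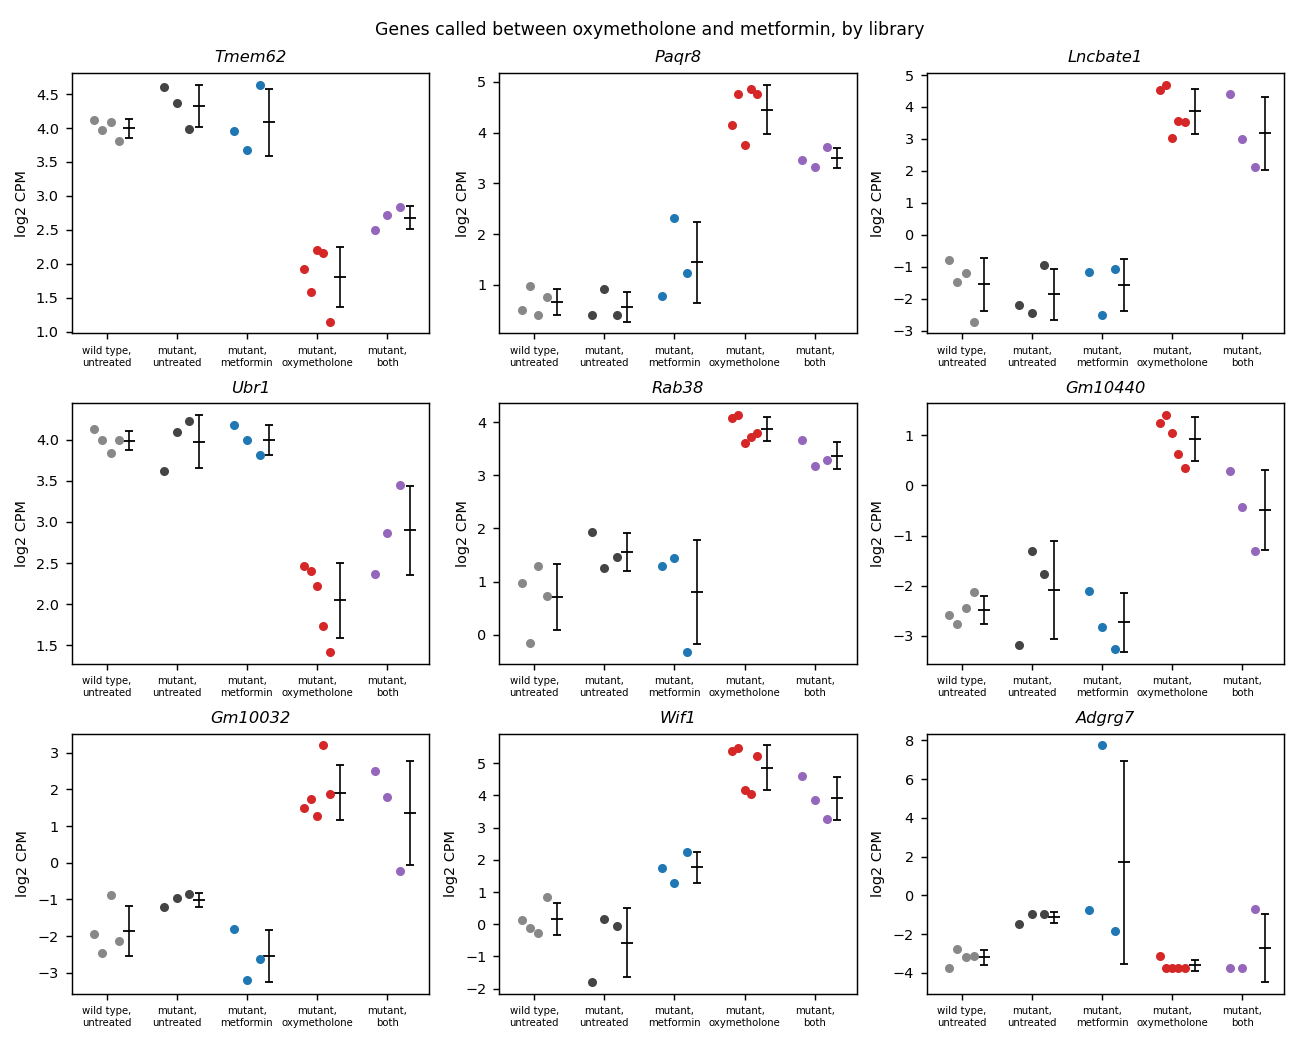
Level of the 9 called genes as log2 CPM (with a prior count of 2) in each of the 18 libraries. Each point is a library, and the bar beside each group is the mean ± SD. For 7 of the 9 genes all oxymetholone and all combination libraries lie on the same side of the metformin and the untreated libraries. For Gm10440 a combination library is level with an untreated mutant library, and for Adgrg7 a single metformin library is far above the rest.

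The RefSeq sequence upstream of the start was inspected for the pair that lies side by side and for the receptor and the Wnt inhibitor that rose. Of the 9 called genes, 6 had RefSeq windows (build GRCm38.p6), 7 windows in all. The 200 bases from 250 to 51 before each start were searched on both strands for the hexamer AGAACA, which steroid receptors bind (TGTTCT on the other strand), and for a longer element, AGAACA, any 3 bases and TGTTC, or its reverse complement. The windows below are printed 5′ to 3′ on the gene's strand, with the hexamer in capitals. Paqr8 has 2 starts on the plus strand, with windows at chr1:20890298-20890497 and chr1:20917590-20917789. The Wif1 window is at chr10:121033754-121033953 on the plus strand. The windows of Tmem62 (chr2:120976812-120977011, plus strand) and Ubr1 (chr2:120970766-120970965, minus strand) point away from each other and are 5846 bases apart.
Paqr8 window 1: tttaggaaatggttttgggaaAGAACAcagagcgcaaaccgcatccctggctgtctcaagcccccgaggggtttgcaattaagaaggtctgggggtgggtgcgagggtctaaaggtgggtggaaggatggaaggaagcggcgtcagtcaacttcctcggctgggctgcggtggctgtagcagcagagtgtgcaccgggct
Paqr8 window 2: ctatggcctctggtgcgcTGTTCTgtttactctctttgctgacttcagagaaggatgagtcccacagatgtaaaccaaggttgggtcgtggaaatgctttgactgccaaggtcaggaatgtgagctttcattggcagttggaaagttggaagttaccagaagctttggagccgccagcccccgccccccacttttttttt
Wif1: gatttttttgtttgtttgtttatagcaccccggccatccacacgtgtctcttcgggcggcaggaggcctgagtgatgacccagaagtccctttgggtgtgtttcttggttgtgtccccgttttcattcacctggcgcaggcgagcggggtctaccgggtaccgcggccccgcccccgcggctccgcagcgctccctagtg
Tmem62: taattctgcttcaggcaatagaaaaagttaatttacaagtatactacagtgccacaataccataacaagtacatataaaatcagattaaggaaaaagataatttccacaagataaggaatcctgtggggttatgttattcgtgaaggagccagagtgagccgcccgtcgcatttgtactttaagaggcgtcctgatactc
Ubr1: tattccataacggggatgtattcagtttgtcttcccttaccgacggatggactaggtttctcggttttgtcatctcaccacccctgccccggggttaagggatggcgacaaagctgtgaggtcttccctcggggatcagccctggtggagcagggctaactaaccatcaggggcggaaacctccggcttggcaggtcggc
Both Paqr8 windows held 1 hexamer, and none of the other 5 windows did. The hexamer occurred in 13.24% of all 32851 RefSeq windows of this length, and the longer element in none of the 7 windows and in 0.0274% of all windows. A match in these letters is a description and not a binding site.

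The called genes were then set beside the untreated mutants and the mice given both drugs. Oxymetholone minus untreated and metformin minus untreated share the untreated libraries, so they are given side by side only. Oxymetholone minus untreated had 7 calls (0.0434% of genes), 4 higher (0.0248%) and 3 lower (0.0186%), and 773 genes at an unadjusted p under 0.05 (4.8%). Tmem62 differed from untreated mutants by -2.52 ± 0.26 with oxymetholone and by -0.20 ± 0.29 with metformin. Ubr1 differed by -1.92 ± 0.26 and 0.01 ± 0.30. With metformin both genes lay within 1 SE of the untreated mutants. Paqr8 differed from untreated mutants by 4.0 ± 0.39 with oxymetholone and 1.06 ± 0.38 with metformin. Lncbate1 differed by 6.04 ± 0.78 and 0.27 ± 0.81, and Rab38 by 2.32 ± 0.40 and -0.62 ± 0.41. No gene was called between metformin and untreated mutants with edgeR, where 914 had an unadjusted p under 0.05 (5.67%).

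**Figure D3:**
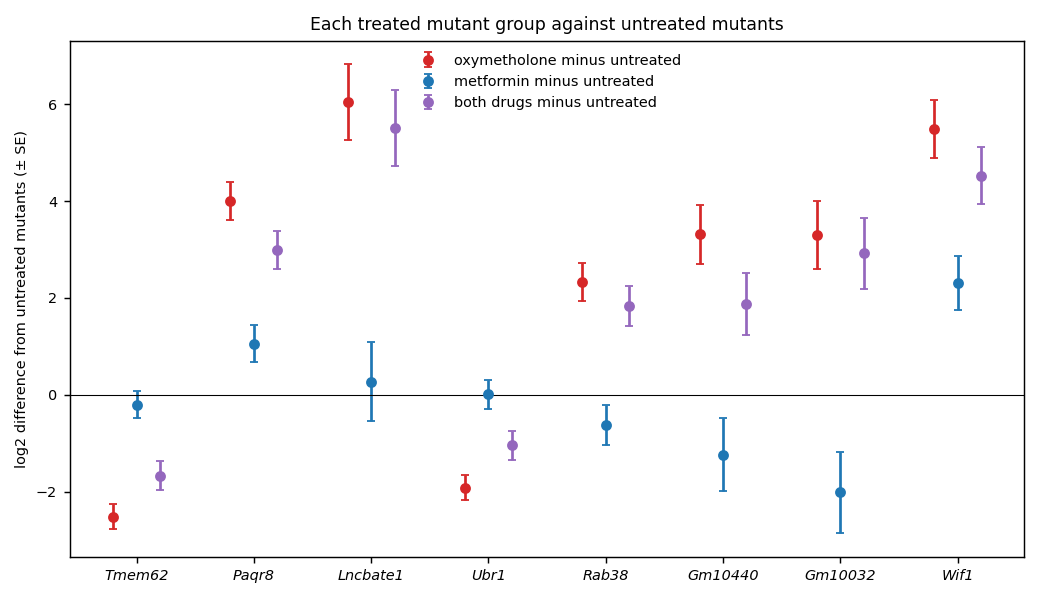
Log2 difference from untreated mutants (± SE, edgeR) for 8 called genes, with oxymetholone in red, metformin in blue and both drugs in purple. Adgrg7 is left out because its fitted values depend on counts of 0. The combination values lie on the side of oxymetholone for all 8 genes, and the metformin values lie nearer 0 than those of oxymetholone.

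The comparison of mice given both drugs with untreated mutants shares no library with oxymetholone against metformin. There all 9 called genes had the same sign as between oxymetholone and metformin, while 48.5% of all genes did. For Adgrg7 this difference was -0.73 ± 1.82, smaller than its SE, so its sign says little. The combination libraries had 10.9, 9.94 and 13.1 CPM of Paqr8 against 1.24, 1.80 and 1.25 CPM in untreated mutants, a log2 difference of 2.99 ± 0.39 (adjusted p = 0.00639, edgeR). Wif1 rose by 4.52 ± 0.59 (adjusted p = 0.00639) and Lncbate1 by 5.51 ± 0.79 (adjusted p = 0.0131). Tmem62 had 5.55, 6.53 and 7.03 CPM with both drugs and 24.3, 20.6 and 15.8 CPM in untreated mutants, without overlap, and its difference of -1.67 ± 0.29 was not called (adjusted p = 0.120, edgeR). Ubr1 (-1.04 ± 0.30) and Rab38 (1.83 ± 0.41) had the same sign and were not called. Of the 880 genes with an unadjusted p under 0.05 between oxymetholone and metformin, 38.9% had the same sign, a lower share than among all genes. The called genes and this wider set stood on different sides of the share over all genes.

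Most of the remaining difference lay in genes lower with oxymetholone, and metformin replicate 3 was the highest library for many of them. Of the 50 genes of smallest p, 40 were lower with oxymetholone, and 33 of these 40 were highest of all 18 libraries in metformin replicate 3. Of the 650 genes lower at an unadjusted p under 0.05 (4.03% of genes), 438 were. Over all genes tested the share was 12.5%. Genes picked as lower with oxymetholone than with metformin are picked for high metformin libraries, so these counts are a description and not a test. The next 6 genes by p, none of them called by edgeR, were each highest in metformin replicate 3. DESeq2 called 3 of them, Anxa13 (adjusted p = 9.97e-06), Car2 (0.000402) and Tnnt2 (0.00186). Slc26a3, a chloride and bicarbonate exchanger of the gut, had 0.160, 0.0742, 0.0476, 0 and 0 CPM with oxymetholone and 0.211, 155.3 and 0.0869 CPM in metformin replicates 1, 3 and 4 (adjusted p = 0.0532, edgeR). Dmbt1, a glycoprotein of mucosal surfaces, had 3764 CPM in metformin replicate 3, 6.74 and 4.35 CPM in the other metformin libraries, and at most 1.16 CPM with oxymetholone. Muc1, a cell surface mucin of epithelia, had 154.7 CPM in metformin replicate 3 and at most 1.85 CPM in the other 7 libraries. Anxa13, an annexin of epithelial cells, had 68.8 and 22.4 CPM in metformin replicates 3 and 4, 1.53 CPM in replicate 1, and 0.771 to 2.12 CPM with oxymetholone. Car2, a carbonic anhydrase, had 113.5 and 29.8 CPM in the same metformin libraries, 7.58 CPM in replicate 1 and 4.33 to 7.99 CPM with oxymetholone. Tnnt2, a troponin of heart muscle, reached 7.50 CPM in metformin replicate 3. For Anxa13, Car2 and Muc1, metformin replicate 1 lay inside the range of the oxymetholone libraries, so the group difference came from 1 or 2 of 3 metformin libraries.

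**Figure D4:**
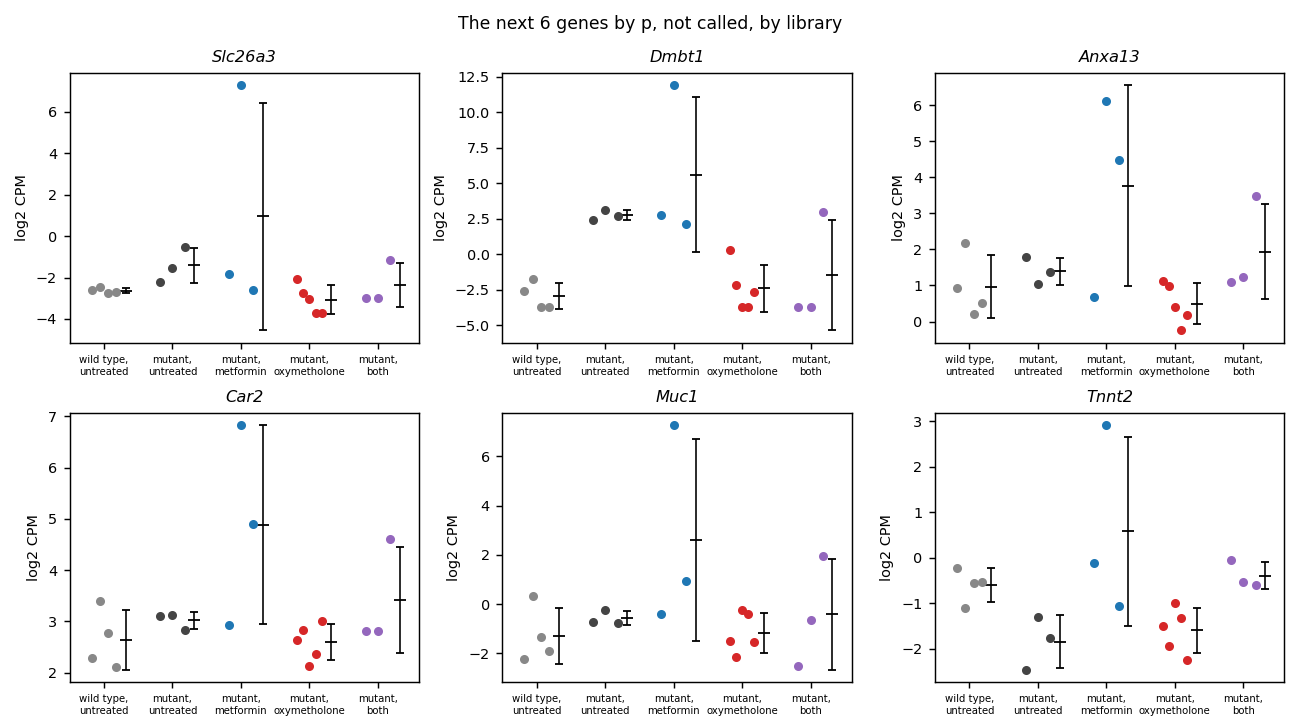
Level as log2 CPM of the 6 genes that follow the called genes by p, in each of the 18 libraries, with the group mean ± SD as a bar. Metformin replicate 3, the middle blue point, is the highest of all libraries in each panel, and replicate 4, the right blue point, is also raised for Anxa13 and Car2.

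Some markers of other cell types were also lower with oxymetholone than with metformin, while those of neutrophils and macrophages were mostly higher. Among 15 markers of bile duct cells, which line the bile passages, 14 were lower with oxymetholone and 1 higher. Their median log2 difference was -3.12, and 10 were lower at an unadjusted p under 0.05, against 4.03% of all genes. None was called by edgeR, and DESeq2 called Epcam, Cldn7 and Cd24a as lower (adjusted p = 0.0108, 0.0177 and 0.0171). Their summed level was 50.2, 929 and 302 CPM in metformin replicates 1, 3 and 4 and 55.8 to 449 CPM with oxymetholone. The keratin Krt19 had 237 CPM in metformin replicate 3, 0.684 and 1.51 CPM in the other metformin libraries and 0.974 to 1.49 CPM with oxymetholone. Combination replicate 3, outside the comparison, had 13.1 CPM of Krt19. Its mean over the bile duct list was 3.20 log2 CPM, against 4.44 in metformin replicate 3. The median of the list was -0.50 without metformin replicate 3, with 11 lower and 4 higher. Set beside untreated mutants, with all libraries, the bile duct median was -0.19 with oxymetholone and 3.57 with metformin. In bulk RNA, fewer cells of a type and less RNA per cell cannot be told apart.

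Of 24 stellate cell and fibrosis genes, which include collagens and contractile proteins, 18 were lower and 6 higher, with a median of -0.85, and 12 and 12 with a median of 0.02 without metformin replicate 3. Smooth muscle actin, Acta2, had 119 CPM in metformin replicate 3 and at most 2.81 CPM in the other 7 libraries. Combination replicate 3, outside the comparison, had 27.5 CPM of Acta2. Its mean over the stellate list was 4.46 log2 CPM, against 4.59 in metformin replicate 3. The 4 measured adipose and muscle markers had a median of -2.52, and 0.14 without metformin replicate 3, where 3 of 4 were higher. Their mean was 2.14 log2 CPM in combination replicate 3 and 6.85 in metformin replicate 3. Acta1, skeletal muscle actin, had 75.5 CPM in metformin replicate 3 and at most 0.381 CPM elsewhere among the 8 libraries. Without that 1 library the stellate list thus had no direction and the median of the muscle list turned. With all libraries, the stellate median relative to untreated mutants was 0.28 with oxymetholone and 1.13 with metformin. The muscle median was -0.17 and 2.42 in the same order.

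Genes of fetal liver and liver tumours were lower in 9 of 12 with a median of -2.32, and of -0.66 without metformin replicate 3. Relative to untreated mutants, with all libraries, their median was 0.01 with oxymetholone and 1.94 with metformin. Here metformin replicate 4 also took part. H19, a noncoding RNA of fetal liver, had 283 CPM in replicate 4, 10.2 CPM in replicate 3 and 0.895 CPM in replicate 1, against 0.0476 to 1.81 CPM with oxymetholone. Tff3, a peptide of mucous epithelia, had 121, 13.2 and 0.474 CPM in the same order. Neither was called by edgeR, with adjusted p = 0.118 for H19 and 0.179 for Tff3, and DESeq2 called both (adjusted p = 0.00163 and 0.0108). Lymphocyte markers were lower in 13 of 16 with a median of -0.56, and in 14 of 16 with -0.62 without metformin replicate 3. Their median relative to untreated mutants was 0.49 with oxymetholone and 0.97 with metformin. The B cell gene Ms4a1 had 0.684, 1.02 and 2.40 CPM with metformin and 0 to 0.515 CPM with oxymetholone, without overlap, and was not called (adjusted p = 0.462, edgeR). The part of these cell types in other gene differences was not tested.

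Genes that steroid hormones act on were examined next. Among 26 genes responsive to androgens or glucocorticoids, 22 were higher with oxymetholone and 4 lower, with a median of 0.46, against 47.6% higher and 52.4% lower over all genes. None was called by edgeR, and 7 were higher at an unadjusted p under 0.05, against 1.43% of all genes. DESeq2 called Igfbp1 (adjusted p = 0.0108) and Mt2 (0.0292). Mt2 differed from untreated mutants by -0.22 ± 1.22 with oxymetholone and by -5.02 ± 1.68 with metformin, so it was not higher with oxymetholone than untreated. For Igfbp1 these differences were 1.55 ± 0.82 and -1.53 ± 0.88. Igfbp1, a secreted protein that binds insulin-like growth factors, had 130, 104, 15.6, 59.7 and 93.2 CPM with oxymetholone and 9.53, 7.46 and 11.5 CPM with metformin. These did not overlap, although oxymetholone replicate 3 was close to metformin, and the log2 difference was 3.08 ± 0.89 (adjusted p = 0.283, edgeR). Cebpd, a transcription factor induced by glucocorticoids, had 17.5, 15.1, 10.3, 33.8 and 28.0 CPM against 7.58, 5.15 and 10.7 CPM, and oxymetholone replicate 3 fell inside the metformin range. The list had a median of 0.56 without metformin replicate 3, with 21 higher.

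Genes that differ between the sexes did not move as a block. Of 26 genes higher in male liver, 10 were higher with oxymetholone and 16 lower (median -0.15), and 15 and 11 (median 0.17) without metformin replicate 3. Of 27 genes higher in female liver, 15 were higher and 12 lower (median 0.32, and 0.20 without metformin replicate 3). None was called by edgeR. Cyp2a4, a steroid hydroxylase higher in female liver, had 281, 967, 257, 122 and 1492 CPM with oxymetholone and 49.3, 8.42 and 120 CPM with metformin. The lowest oxymetholone library lay just above the highest metformin library. The difference of 3.39 ± 0.99 was not called by edgeR (adjusted p = 0.286) but was by DESeq2 (adjusted p = 0.00850). Next by p among the female genes were Cyp2c40 (-1.91 ± 0.59, adjusted p = 0.350, edgeR) and Prom1 (-3.15 ± 1.05, adjusted p = 0.449, edgeR), both lower. Prom1 had 13.9 CPM in metformin replicate 3, and the lowest metformin library (0.737 CPM) lay inside the oxymetholone range of 0.333 to 1.54 CPM. It differed from untreated mutants by 0.46 ± 1.15 with oxymetholone and by 3.61 ± 1.31 with metformin. For Cyp2c40 these differences were -2.16 ± 0.60 and -0.25 ± 0.67. Mup20, a urinary pheromone protein higher in males, had 5319, 9584, 899, 1119 and 4452 CPM against 922, 544 and 1245 CPM, so that the groups overlapped.

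In the families of Paqr8 and Wif1 no other member was called. In the progestin and adiponectin receptor family, 6 of 12 measured members were higher and 6 lower, with a median of 0.03, and Paqr8 was the single member called. The split was 8 higher and 4 lower, with a median of 0.23, without metformin replicate 3. Mmd2, another member, had 30.1, 30.7, 51.7, 80.0 and 44.1 CPM with oxymetholone and 10.8, 6.67 and 17.9 CPM with metformin, without overlap and not called (adjusted p = 0.732, edgeR). Of 21 Wnt pathway and feedback genes, 7 were higher and 14 lower, with a median of -0.14, and Wif1 was the single member called. Leaving out metformin replicate 3 gave a split of 18 higher and 3 lower, with a median of 0.32. Sfrp1, next by p after Wif1 with all libraries, was lower (-1.95 ± 0.64, adjusted p = 0.423, edgeR), with 9.94 CPM in metformin replicate 3. Fzd7, a Wnt receptor, had 8.04 to 14.3 CPM with oxymetholone and 18.1, 20.5 and 8.34 CPM with metformin, which overlapped.

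No gene of the processes that metformin acts on was called. Of 21 gluconeogenesis genes, 15 were higher with oxymetholone and 6 lower, with a median of 0.27. Leaving out metformin replicate 3 gave 18 higher and 3 lower with a median of 0.43. In that fit 4 of the 21 had an unadjusted p under 0.05, against 533 of all 16115 genes. Fbp2, the member of smallest p with all libraries, was lower (-2.24 ± 0.87, adjusted p = 0.687, edgeR), with 6.80 CPM in metformin replicate 3. Tat, which breaks down tyrosine, had 628, 207, 907, 1394 and 1056 CPM with oxymetholone and 255, 700 and 180 CPM with metformin. These ranges overlapped, and the difference of 1.15 ± 0.57 was not called (adjusted p = 0.952, edgeR). Genes of AMP-activated kinase and its pathway divided into 9 higher and 9 lower of 18 (median -0.01), or 13 and 5 without metformin replicate 3 (median 0.18). The catalytic subunit gene Prkaa2 differed by -0.33 ± 0.23. Nuclear genes of respiratory complex I were higher in 24 of 37, with a median of 0.07 and none at an unadjusted p under 0.05. Without metformin replicate 3 they were higher in 8 of 37, with a median of -0.16. Of 7 metformin transporter genes, 6 were lower, with a median of -0.15, or -0.05 without metformin replicate 3. Slc47a2, an exporter of cations, was lower at an unadjusted p of 0.0241 (-1.59 ± 0.64, adjusted p = 0.707, edgeR) at levels of at most 1.05 CPM.

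Cholesterol synthesis genes were higher in 21 of 24 with a median of 0.20, and in 24 of 24 with a median of 0.65 without metformin replicate 3, in neither case with a gene called. Set beside untreated mutants, with all libraries, the median was -0.42 with oxymetholone and -0.67 with metformin. Both were thus below untreated mutants, and oxymetholone was the less low. The mean level of the list was uneven among the oxymetholone libraries, with log2 CPM of 7.07, 7.30 and 7.24 in replicates 1, 3 and 4 and 5.83 and 5.93 in replicates 2 and 5, against 6.11, 7.13 and 6.32 in metformin replicates 1, 3 and 4. The groups overlapped. Targets of the oxidative stress factor NRF2 were higher in 16 of 26 (median 0.23), none at an unadjusted p under 0.05, and oxymetholone replicate 5 had the highest mean of the 8 libraries (6.89 against 4.77 to 5.86 log2 CPM). Genes of the integrated stress response were higher in 17 of 20 (median 0.27, and 0.39 without metformin replicate 3). The member of smallest p, Stc2, was lower with oxymetholone (-3.59 ± 0.94, adjusted p = 0.198, edgeR), at levels of at most 2.81 CPM. Ddit3 was higher (0.71 ± 0.29, adjusted p = 0.707, edgeR). The secreted stress cytokine Gdf15 had 53.1, 67.5, 8.81, 7.46 and 24.6 CPM with oxymetholone and 12.7, 8.45 and 11.6 CPM with metformin, overlapping.

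Acute-phase, neutrophil and interferon genes were mostly higher with oxymetholone than with metformin, and single libraries led. Set beside untreated mutants, the acute-phase median was -0.36 with oxymetholone and -1.29 with metformin. The neutrophil median was 0.01 and -1.80 in the same order, and the interferon median 0.69 and 0.19. Of 27 acute-phase genes, plasma proteins and others that the liver makes in inflammation, 23 were higher with a median of 0.92. None was called by edgeR, and 5 were higher at an unadjusted p under 0.05, against 1.43% of all genes. DESeq2 called Mt2 (adjusted p = 0.0292), which is also in the list of androgen or glucocorticoid responsive genes. Their mean level was 11.28 log2 CPM in oxymetholone replicate 4, 8.02 to 9.11 in the other 4 and 7.84 to 8.77 with metformin. Orm3, an acute-phase plasma protein, had 106, 80.5, 135, 281 and 91.3 CPM with oxymetholone and 44.3, 24.7 and 42.2 CPM with metformin, without overlap (1.91 ± 0.59, adjusted p = 0.347, edgeR). Mt2, a metal-binding protein, had 1.28, 2.63, 17.4, 64.6 and 3.71 CPM against 0.895, 0.594 and 0.464 CPM, and untreated mutants had 34.6, 18.5 and 9.39 CPM, above all metformin libraries. Neutrophil markers were higher in 14 of 15 with a median of 1.08, and of 2.98 without metformin replicate 4. Their summed level was 3706 CPM in oxymetholone replicate 4, 67.1 to 376 CPM in the other 4 and 20.4, 114 and 1126 CPM in metformin replicates 1, 3 and 4. In oxymetholone replicate 4 the mean over the list was 2.90 log2 CPM, and its members Prtn3, Camp and Mpo had 117, 2.68 and 1.74 CPM. These are a small part of the summed 3706 CPM. Mpo was at 0 in metformin replicates 1 and 3 and in oxymetholone replicates 1 and 3. With the 3 components that the authors' deposited residuals leave out fitted as well, a setting chosen after seeing the data, the medians turned to -0.59 for the acute-phase genes and -0.37 for the neutrophil markers. The part of neutrophils in the acute-phase values was not tested.

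Interferon response genes were higher in 29 of 30 with a median of 0.64. At an unadjusted p under 0.05, 5 were higher, against 1.43% of all genes, and none was called by edgeR or DESeq2. The median was 0.47 without metformin replicate 3 and 1.57 without metformin replicate 4. Irf9, a subunit of the interferon-activated transcription factor, had 18.9, 32.4, 30.8, 51.6 and 42.3 CPM with oxymetholone and 15.9, 17.3 and 25.6 CPM with metformin, and oxymetholone replicate 1 fell inside the metformin range (0.84 ± 0.27, adjusted p = 0.366, edgeR). Oasl1, an antiviral protein, had 128.6 CPM in oxymetholone replicate 5 and 3.92 to 13.6 CPM in the other 4, against 1.32, 3.43 and 12.1 CPM with metformin. The mean over the list was 4.34 log2 CPM in oxymetholone replicate 5 and 2.64 to 3.58 in the other 4. In metformin replicates 1, 3 and 4 it was 1.68, 2.25 and 3.70, so the groups overlapped.

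**Figure D5:**
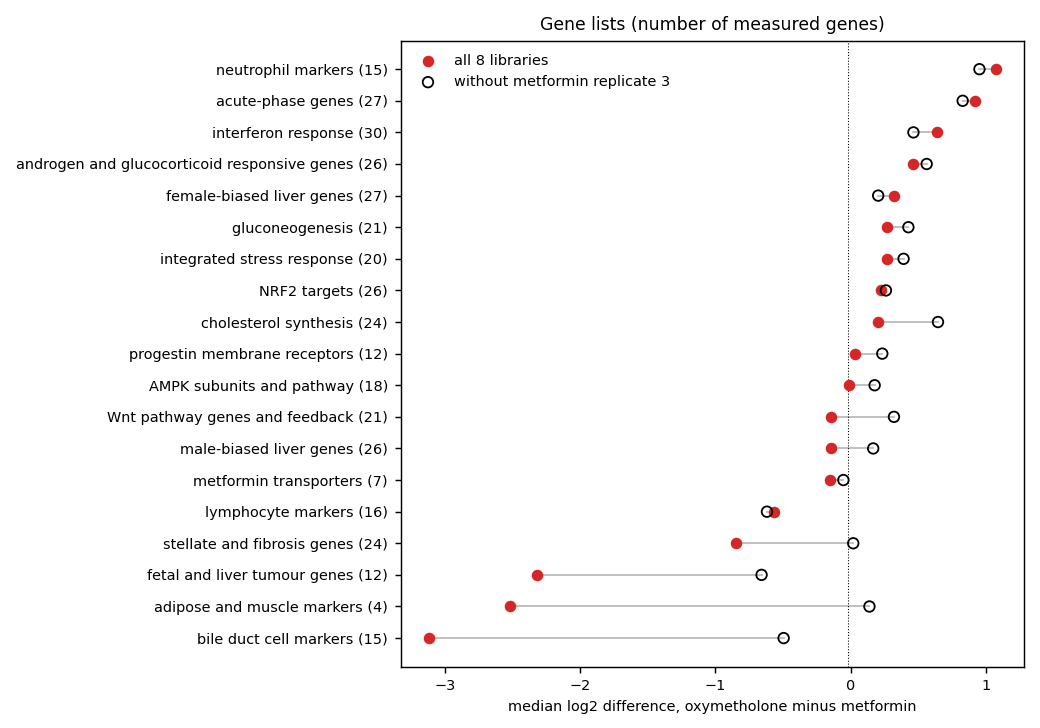
Median log2 difference between oxymetholone and metformin for 19 gene lists (number of measured genes in brackets), with all 8 libraries in red and without metformin replicate 3 as open circles. The dotted line is the median of all genes. Bile duct, fetal and tumour, and adipose and muscle lists move most when that library is left out, and neutrophil, acute-phase and interferon lists stay above the line in both.

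The calls were followed across 16 other settings, 8 of which left out 1 library each. Tmem62, Paqr8, Lncbate1, Ubr1 and Rab38 were called in 15 of 16, among them all 8 with a library left out, and missed the threshold in a fit of the 2 compared groups alone (adjusted p = 0.0692 for Lncbate1 and 0.124 for the other 4, edgeR). Gm10032 was called in 13 of 16 and Gm10440 in 11 of the 15 settings that tested it. Wif1 was called in 9 of 16, with an adjusted p of 0.0166 to 0.208 when 1 library was left out. Adgrg7 was called in 5 of the 14 settings that gave it an adjusted p. The log2 difference of Tmem62 stayed between -2.63 and -1.99 and that of Paqr8 between 2.66 and 3.53 over these settings. Without metformin replicate 3 there were 5 calls, namely Tmem62, Paqr8, Lncbate1, Ubr1 and Rab38. With metformin replicate 1 left out there were 153 calls (147 lower), with replicate 4 left out 57 (49 lower), and with DESeq2 107 (81 lower), while the compared groups alone gave 0 (605 genes at an unadjusted p under 0.05, edgeR). Without metformin replicate 3 the next gene by p was Ppp1r42, a regulatory subunit of protein phosphatase 1 (-4.65 ± 0.80, adjusted p = 0.0702, edgeR).

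Ppp1r42 and 2 genes near it on chromosome 1, Tcf24 and Mcmdc2, were lower with oxymetholone without overlap, and they were singled out after their values were seen. Ppp1r42 had 0.0371 to 0.122 CPM with oxymetholone and 1.37, 0.132 and 2.23 CPM in metformin replicates 1, 3 and 4. Tcf24, a transcription factor, had 0.0813 to 0.360 CPM against 3.26, 0.594 and 9.24 CPM. Untreated mutants had 2.34, 14.4 and 5.32 CPM of Tcf24, so metformin replicate 3 lay nearer the oxymetholone libraries than to the untreated ones. Cops5, beside Ppp1r42, differed by 0.02 ± 0.23, and with all libraries edgeR called none of the 3 genes (adjusted p = 0.106, 0.128 and 0.136 for Ppp1r42, Tcf24 and Mcmdc2), while DESeq2 called each (0.00473, 0.00178 and 0.0180). Between oxymetholone and untreated mutants Mcmdc2 was called (-6.40 ± 1.03, adjusted p = 0.0278, edgeR), with 1 count in all oxymetholone libraries together. Its difference between metformin and untreated mutants was -1.65 ± 0.85 and was not called. Wild-type replicate 2, which had no drug, was as low as the oxymetholone libraries, with 0.0712 CPM of Ppp1r42 and 0.320 CPM of Tcf24.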

How the data were processed

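Liver RNA was purified on columns and libraries were made by a company, per the labels' protocols. Per the submitters' processing notes, reads were placed on GRCm39. The sources used here do not give the aligner, counter, annotation or strand setting. The deposited raw columns are unnormalized whole-number counts for each gene, per the file headers. The authors also deposited a CPM signal scaled by library and log2 residuals, per the file headers. The residuals differ from log2 CPM by 3 components, which were used in 1 alternative setting only. Values from that setting are named as such. Replicates were numbered in accession order, and metformin replicate 2 and untreated mutant replicate 1 were not used.

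Counts of all 18 libraries were fitted in edgeR 4.0.16 (R 4.3.3) with TMM scaling, filterByExpr (which removed 0 of 16115 genes) and a robust quasi-likelihood fit with 1 coefficient for each of 5 groups. Adjustment was by Benjamini-Hochberg over all genes, and a call is an adjusted p under 0.05. SE are those of the log2 differences in that fit. Alternatives used DESeq2 1.42.0 and limma 3.58.1 (voom), other size factors and filters, fewer groups, and 1 library left out. The fit was tested on simulated counts of 15893 genes for oxymetholone against metformin. Of genes changed 2-fold it found 6%, of those changed 4-fold 76%, of 8-fold changes 94% and of 16-fold changes 98%. Of its 144 calls, 7 were false. The changed genes were drawn from those with a mean of at least 1 CPM, and no simulated library was given a profile of its own. These shares therefore do not cover genes of lower level or a library that stands apart. Replicates of a group differed by far more than sampling noise, so none was counted as a repeat.

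The comparison, the gene lists and the named genes were chosen with earlier results of these data known. Named were all called genes, the next by p up to 15, up to 3 members of smallest p of each described list, and Paqr8, Wif1, Tmem62 and Ubr1. No gene set was tested, and lists are given by counts and medians. RefSeq windows of GRCm38.p6 were used for sequence and gene order.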

Additional observations from a re-analysis of the deposited data

Results flagged for a closer look

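Of 76 groups of named-gene values examined for a library far from the rest, 2 had one, and chance gives about 5% of such groups. These were the oxymetholone libraries for each named gene and the wild-type libraries for each called gene. The metformin libraries were not examined in this way, so outlying values in metformin replicate 3 are not counted here. Serpina1e, an alpha-1 antitrypsin gene higher in male liver, had 14474 CPM in oxymetholone replicate 3 and 39.9 to 67.0 CPM in the other 4 oxymetholone libraries. Serpina1e has near-identical gene copies, and how shared reads were counted is not given, so its value is uncertain. Adgrg7 had 0.0401 CPM in oxymetholone replicate 1, which is 1 count, and 0 in the other 4.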

How the results depend on the processing

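The 9 calls between oxymetholone and metformin became 107 with DESeq2 (26 higher and 81 lower, 8 of the 9 among them, while Adgrg7 had no adjusted p) and 0 in a fit of the 2 compared groups alone (605 genes at an unadjusted p under 0.05). Leaving out 1 library gave 5 to 153 calls: 153 without metformin replicate 1 (147 lower), 57 without metformin replicate 4 (49 lower), 5 without metformin replicate 3, and 7 or 8 without any 1 oxymetholone library. The other settings gave 6 to 9. With the 3 components recovered from the deposited residuals, chosen after seeing the data, 13 genes were called, 7 of the 9 among them. The cause of these changes was not tested.

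No paired analysis was possible because replicate numbers were given in accession order and pair no libraries.

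Over the 8 fits with a library left out, these log2 differences ran from negative to positive, and only the fit without metformin replicate 3 gave the positive end: Paqr4 -1.51 to 0.61, Sfrp1 -2.47 to 0.24, Fbp2 -2.79 to 1.28, Krt19 -6.66 to 0.073, Myh11 -5.64 to 0.62, Des -2.73 to 0.18 and Acta1 -7.84 to 0.16. With the 3 recovered components, Slc26a3 (0.13), Paqr4 (0.51), Sfrp1 (0.47), Fbp2 (1.41), Krt19 (0.81), Myh11 (0.68), Acta2 (0.64), Des (0.10) and Mylpf (0.071) turned positive and Mt1 (-0.065) and Prtn3 (-1.51) negative. Fbp2 (0.38) and Slc22a2 (0.094) did so with limma-voom. None of these genes was called. With the components the acute-phase median was -0.59 and the neutrophil median -0.37, and without metformin replicate 4 the interferon median was 1.57 and the neutrophil median 2.98. Totals of at least 21.2 M counts limit genes such as Gm10440, with 1 to 3 counts in metformin libraries.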

Other observations

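Further lists of liver genes held no gene called between oxymetholone and metformin by edgeR or DESeq2. Genes of the urea cycle and amino acid breakdown, which clear ammonia, were higher with oxymetholone in 23 of 27 (median log2 difference 0.25), and in 21 of 27 without metformin replicate 3 (0.30). Genes of the unfolded protein response were higher in 15 of 17 (0.12), and in 16 of 17 without that library (0.31). Macrophage and Kupffer cell markers were higher in 15 of 17 (0.62) and erythroid markers, such as the globins, in 8 of 9 (0.73). Relative to untreated mutants, the erythroid median was -0.02 with oxymetholone and -1.18 with metformin. The macrophage median was 0.36 and -0.25, and that of the unfolded protein response -0.19 and -0.53. Genes of bile acid synthesis and transport were lower in 18 of 22 (-0.14), and in 11 of 22 without metformin replicate 3 (-0.01). Cell division genes divided into 12 higher and 18 lower (-0.06, and -0.22 without metformin replicate 3), p53 targets into 11 and 13 (-0.02), and genes around the central vein of the lobule into 11 and 11 (-0.04, and 0.16 without that library).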
